A study of Mus musculus with 14 samples.

Results

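The genes described here mark the oligodendrocyte lineage, from its precursors to the cells that make myelin. They are 9 of the 17927 genes in the deposited table of RNA-SEQ counts, found by their symbols, and all 9 were present: Pdgfra, Cspg4, Olig1, Olig2, Sox10, Mbp, Mag, Mog and Cnp. Oligodendrocyte precursor cells (OPCs) divide and carry the receptor PDGFRA and the proteoglycan NG2, the product of Cspg4. The transcription factors OLIG1, OLIG2 and SOX10 act throughout the lineage, and when precursors leave the cell cycle they switch on the proteins of myelin, the insulating sheath of axons. In the mouse brain this switch begins around birth and runs from caudal to rostral regions over the following weeks.

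The study compared whole brains of mice at postnatal day 2 (P2), 7 WT and 7 Capn15 KO, made to lack the intracellular protease calpain 15. The mice came from lines made on C57BL/6J, and no treatment of the animals is described. The methods name a Capn15(lacZ-Neo) line and a FLOXed Capn15 line, and do not say which gave the KO brains used here. By the names of the count columns, the WT brains came from 2 females and 5 males and the Capn15 KO brains from 4 females and 3 males. The same names give 1 of 6 letters, A to F, taken here as the 6 litters that the methods describe. Litter B gave 4 libraries and each other litter gave 2, always as many WT as KO. In litters A, B and E the KO brains were female and the WT brains male. In litters C and D it was the reverse, and in litter F both were male.

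The libraries held between 37620954 and 70910163 counts, so that 3 counts in the smallest library correspond to 0.0797 CPM, the counts of a gene per 1000000 counts of the library after TMM scaling. Capn15 itself was at 25.4 ± 3.07 CPM in WT and 14.5 ± 2.67 CPM in KO brains (SD, n = 7 each), and it was lower in the KO in 6 of 7 pairs of equal replicate number. In litter F it was not, with 18.7 CPM in the library labelled WT 7 and 20.2 CPM in the library labelled KO 7. By edgeR's quasi-likelihood test its FDR was 0.0747. The labels name neurons as the cell type, but the tissue was whole brain, and markers of astrocytes, microglia, pericytes, meningeal fibroblasts, choroid plexus and Schwann cells were all counted in every library, none of them at 0. KO 4, the KO brain of litter C, stood apart in its caudal Hox genes, the transcription factors that mark hindbrain and cord. The mean log2 CPM of 12 such genes was -0.65 in KO 4, against 0.55 to 1.39 in WT and up to 1.60 in the other KO libraries. Results that rest on litter F or on KO 4 are therefore given with and without them.

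The length-corrected levels place the precursor genes and the myelin genes on 1 scale. The level used is FPKM, CPM divided by the kilobases of exon of each gene in GENCODE M21 on GRCm38. Among the 7 WT brains Olig1 was highest, at 29.4 ± 4.74 FPKM (SD, n = 7), and Mog, a glycoprotein of the outermost myelin layer that appears late in differentiation, was lowest, at 0.451 ± 0.343 FPKM. Between them lay Cnp, an enzyme of the myelin cytoplasm, at 17.3 ± 3.99 FPKM, and Pdgfra at 17.2 ± 1.81 FPKM. The next levels were those of Mbp, the basic protein that compacts myelin, at 12.1 ± 4.03 FPKM, and Olig2 at 9.16 ± 1.29 FPKM. Sox10 was at 5.09 ± 0.861 FPKM. The levels of Cspg4, at 2.86 ± 0.287 FPKM, and of Mag, an adhesion molecule of the myelin layer next to the axon, at 2.74 ± 1.11 FPKM, were close to each other.

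**Figure D1:**
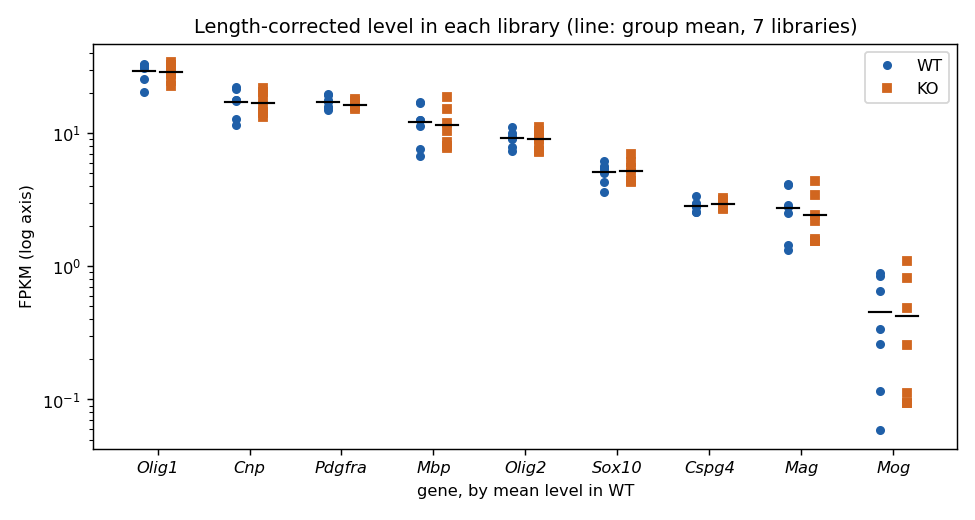
FPKM (log axis) of each gene in each library, with WT as circles, Capn15 KO as squares and a line at the mean of 7 libraries. The order of the means is the same in both genotypes, the myelin genes Mbp, Mag and Mog scatter far more than Pdgfra and Cspg4, and Mog is the lowest gene in the plot.

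Each gene was compared with its neighbour in this order over the 7 WT brains by a two-sided exact sign-flip test, adjusted over the 8 neighbour pairs. For 5 of the 8 pairs the upper gene was higher in 7 of 7 brains (adjusted p = 0.025, exact test). Cnp and Pdgfra could not be ordered (p = 0.797), nor could Cspg4 and Mag (p = 0.469), with the first gene higher in 4 of 7 brains in both exact tests. Mbp was higher than Olig2 in 6 of 7 brains (exact p = 0.0469, adjusted p = 0.0625). The order of the means was the same in the Capn15 KO brains. With the longest transcript as the length, the pairs that could not be ordered changed places. The strand setting of the counting is not stated, which leaves Cnp uncertain because it overlaps Dnajc7 on the other strand, and the count of Mbp also takes in the golli transcripts of that gene, which other cells than oligodendrocytes make.

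On GRCm38, by GENCODE M21, the precursor genes Pdgfra (ENSMUSG00000029231) and Cspg4 (ENSMUSG00000032911) lie at chr5:75152292-75198215 and chr9:56865033-56899870 on the plus strand. Olig2 (ENSMUSG00000039830) at chr16:91225457-91228677 and the single-exon gene Olig1 (ENSMUSG00000046160) at chr16:91269772-91271933 are neighbours on the plus strand, and Sox10 (ENSMUSG00000033006) lies at chr15:79154908-79165240 on the minus strand. Of the myelin genes, Mbp (ENSMUSG00000041607) at chr18:82475146-82585637 and Cnp (ENSMUSG00000006782) at chr11:100574904-100591729 are on the plus strand, and Mag (ENSMUSG00000036634) at chr7:30899176-30914873 and Mog (ENSMUSG00000076439) at chr17:37010743-37023398 are on the minus strand. The counts cover the whole of each gene and do not tell its transcripts apart.

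At P2 the summed FPKM of Mbp, Mag, Mog and Cnp exceeded that of Pdgfra and Cspg4 in every brain, but by unequal amounts. The first sum holds more genes than the second, so its excess depends on which genes are summed. The doubts given above about the counts of Cnp and Mbp apply to it as well. Mbp over Pdgfra alone lay between 0.449 in WT 2 and 0.882 in WT 7, and between 0.492 in KO 3 and 1.07 in KO 7. The ratio of the myelin sum to the precursor sum lay between 1.13 in WT 2 and 1.96 in WT 7, and between 1.23 in KO 3 and 2.25 in KO 7. The lowest ratio of each genotype came from litter B and the highest from litter F. The FPKM of Mog as a percentage of that of Mbp ranged from 0.874% in WT 2 to 5.89% in KO 7, in the same direction. Since the tissue was measured in bulk, fewer cells of a type and less RNA per cell cannot be told apart.

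The 9 genes differed between litters, most of all the myelin genes. The test of litter, an F test over all litter coefficients of the edgeR quasi-likelihood fit with genotype and sex, called 9 of 9 genes at an FDR under 0.05, where it called 5301 of all 17927 genes (29.6%). Without KO 4 and litter F it called 9 of 9 again. Litter B had the lowest mean of all 9 genes. The highest mean was found in litter A for Pdgfra and Cspg4, in litter D for Olig1, and in litter F for the other 6 genes.

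**Figure D2:**
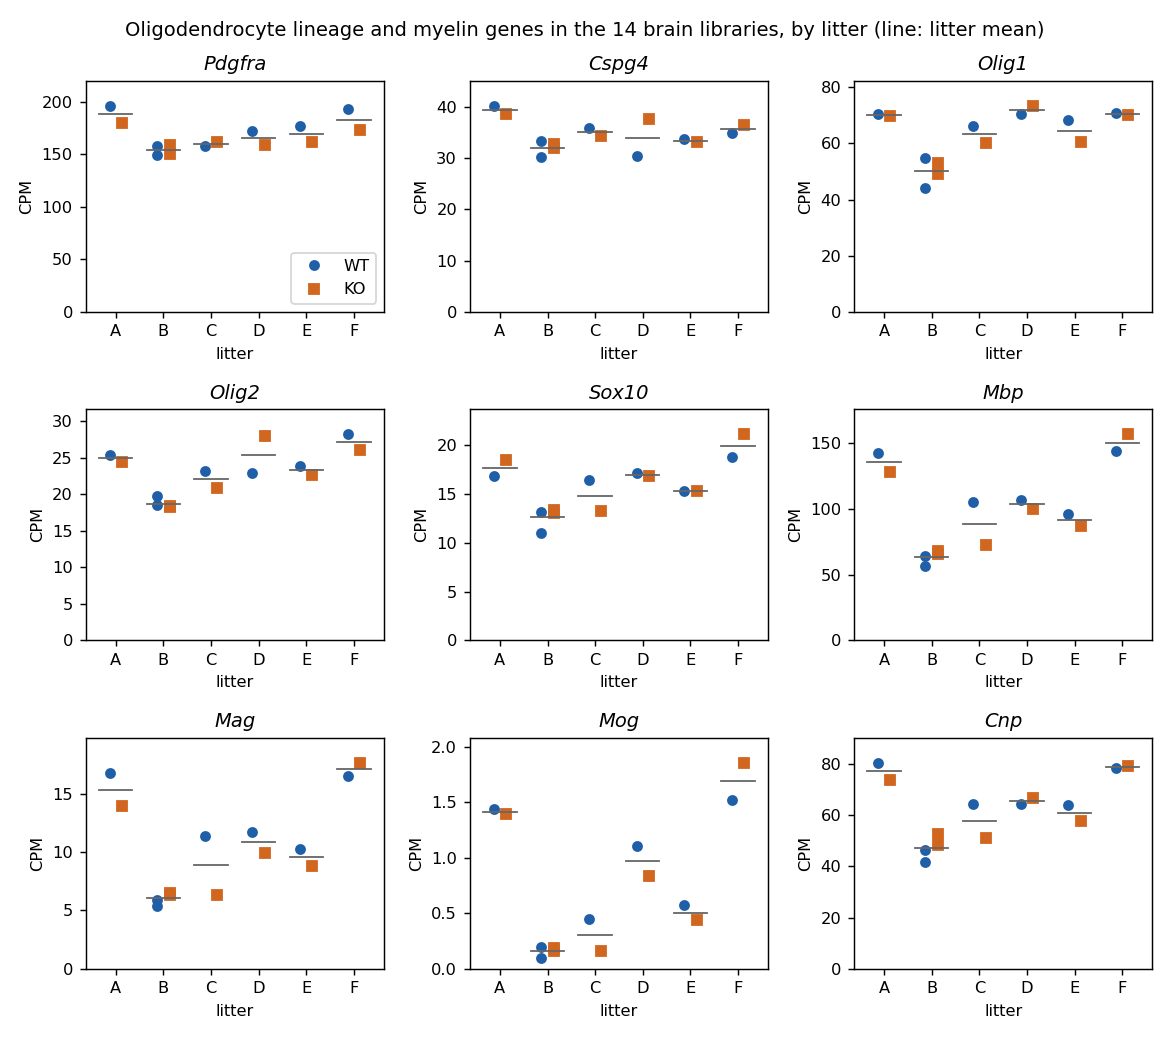
CPM of the 9 genes in the 14 libraries, by litter, with WT as circles, Capn15 KO as squares and a line at the mean of each litter, on axes that start at 0. Litter B lies lowest in every panel, the steps between litters are small for Pdgfra and Cspg4 and large for Mbp, Mag and Mog, and the 2 genotypes overlap in all 9 panels.

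The receptor and the proteoglycan of the precursors varied least. Pdgfra, which receives the growth factor that keeps OPCs dividing, had litter means from 154.2 CPM in litter B to 188.4 CPM in litter A, a ratio of 1.22 (FDR 0.00497). Cspg4 had litter means from 32.0 to 39.4 CPM in the same litters, a ratio of 1.23, and its FDR of 0.0454 was the weakest of the 9 genes. It passed the threshold in 13 of 24 settings, the stated fit included, and it did not pass without any 1 of WT 1, 2, 3, 6 and 7 or KO 1, 2, 3, 6 and 7, with an FDR of up to 0.268 without WT 1. Over all genes with a mean of at least 1 CPM the median ratio of highest to lowest litter mean was 1.18, so that both precursor genes were near the middle of the table in spread.

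The transcription factors varied more. Olig1 ranged from a mean of 50.3 CPM in litter B to 71.9 CPM in litter D, a ratio of 1.43 (FDR 0.000707). Olig2, which lies 41.1 kb from Olig1 on chromosome 16 and specifies the lineage, had a ratio of 1.45, from 18.8 CPM in litter B to 27.2 CPM in litter F (FDR 0.00116). Sox10, which activates the myelin genes directly, had litter means of 12.7 to 19.96 CPM and a ratio of 1.58 (FDR 0.000604).

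The myelin genes varied most. Cnp ranged from 47.3 CPM in litter B to 78.9 CPM in litter F, a ratio of 1.67 (FDR 0.000182). Mbp ranged from 63.6 to 150.4 CPM between the same litters, a ratio of 2.36 (FDR 1.66e-05), and Mag from 6.03 to 17.1 CPM, a ratio of 2.83 (FDR 3.9e-05). Mog ranged from 0.162 to 1.69 CPM, a ratio of 10.4 (FDR 4.57e-05), on raw counts that lay between 4 and 87 per library. Ratios above 1.5 were found for 8.82% of all genes of at least 1 CPM. The pattern was thus graded along the lineage, from about the spread of an average gene for Pdgfra and Cspg4 to a spread that few genes of the table reached for Mbp and Mag. Wide spread was not confined to the lineage. Among genes of at least 1 CPM, a ratio above 1.5 was found for 4 of 8 of the lineage genes and for 4 of 8 astrocyte markers. It was found for 10 of 10 caudal Hox genes and for 0 of 8 neuron markers. No test was made of the grading itself. The labels say no more of a litter than its letter, and what else differed between litters cannot be told apart from the letter.

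The other genes of the lineage were read from lists of 20 OPC genes, 18 genes of committed precursors and differentiation, and 30 genes of myelin proteins and lipids. The litter test called 12 of 20 OPC genes, 15 of 18 committed genes and 18 of 30 myelin genes, beside the 29.6% of all genes given above. The median ratio of highest to lowest litter mean was 1.24, 1.35 and 1.55 in the 3 lists, in that order, over their members of at least 1 CPM. Litter B was lowest for 13 of 18 committed genes and 19 of 27 myelin genes, against 33.5% of all genes, and for 9 of 20 OPC genes. Litters A and F were the 2 highest for 12 of 18 committed genes and 18 of 27 myelin genes, against 13.5% of all genes, and for 9 of 20 OPC genes.

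Not every gene followed. Among OPC genes, Gpr17, a receptor of precursors on the point of differentiating, had a ratio of 2.702 with litter B lowest at 32.3 CPM (FDR 1.43e-05), and Susd5 (ratio 2.48), Emid1 (1.56) and C1ql1 (1.32) were also called. Vcan, a matrix proteoglycan, and Cacng4, a subunit that accompanies glutamate receptors, were called with litter F lowest, at 179.9 and 92.1 CPM, while the abundant Sulf2 was not called (FDR 0.118). Of the committed genes, Enpp6, a marker of newly formed oligodendrocytes, ranged from 2.33 CPM in litter B to 7.13 CPM in litter A (FDR 0.000301), and Bcas1, of the same stage, from 12.6 CPM in litter B to 27.7 CPM in litter F (FDR 3.9e-05). Tspan2 (ratio 1.73), Omg (1.71), Lims2 (1.74) and Sirt2 (1.21) were called as well. Fyn, a kinase that neurons also express, and Tcf7l2, a transcription factor also made in thalamic neurons, were called with litter B highest, at 267.7 and 70.6 CPM.

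Of the myelin list, Mobp, a protein of compact myelin, ranged from 2.14 CPM in litter B to 13.99 CPM in litter F, a ratio of 6.53 (FDR 5.24e-05). Tppp, which binds microtubules, Pllp, a membrane protein of myelin, and Car2, a carbonic anhydrase, had ratios of 1.81, 2.23 and 1.60, each with litter B lowest and litter F highest. Cntn2, an adhesion protein that neurons also make, ran the other way, from 276.0 CPM in litter B to 161.5 CPM in litter F (FDR 1.29e-05), and Ndrg1 was called with a ratio of only 1.26.

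The 9 genes moved together over the 14 libraries once the mean of each genotype was subtracted. Mbp and Mag had r = 0.991 and rho = 0.969, and Mbp and Cnp r = 0.987 and rho = 0.978, each at an adjusted permutation p of 3.27e-05 for r, from the smallest p that 100000 permutations can give, and without the 2 most distant libraries r was 0.993 and 0.983. Pdgfra and Cspg4 were less closely related to each other, with r = 0.638 and rho = 0.538 (adjusted permutation p = 0.0145 and 0.049). That relation rested on WT 1 and KO 1, the libraries of litter A, since r fell to 0.37 without them. In this family of 36 pairs all 36 had an adjusted permutation p under 0.05, but libraries of 1 litter are not independent, so these p-values are too small.

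**Figure D3:**
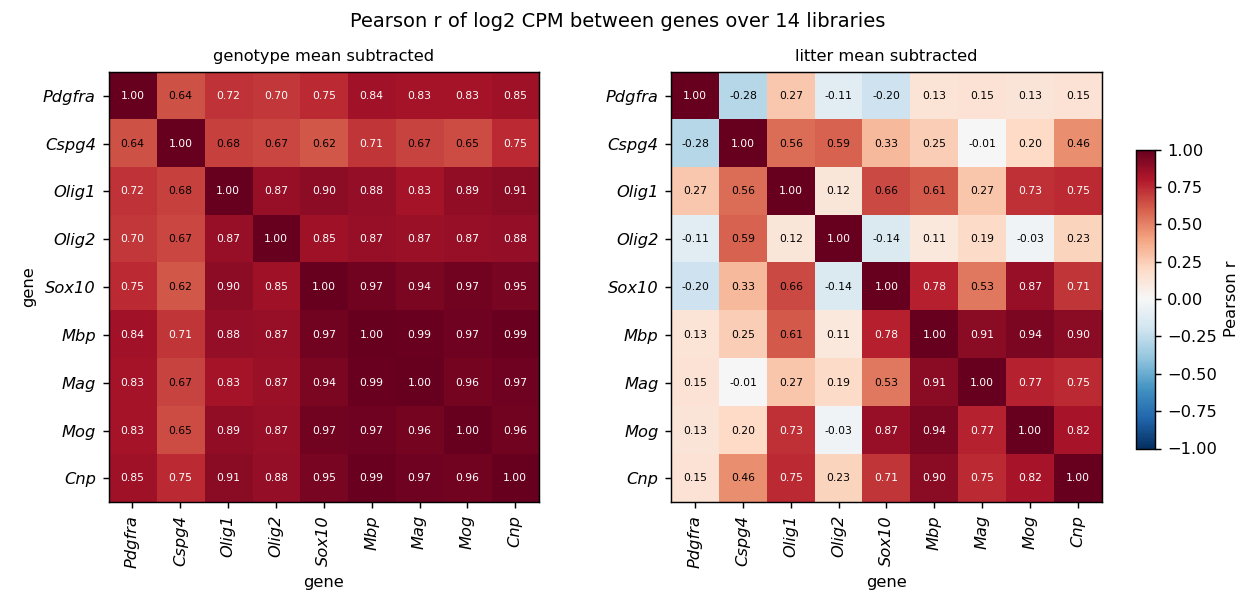
Pearson r of log2 CPM between the 9 genes over 14 libraries, with genotype means subtracted on the left and litter means subtracted on the right. All 36 pairs are positive on the left, and on the right the myelin genes keep high values with each other, such as 0.94 for Mbp and Mog, while Pdgfra has values between -0.28 and 0.27 with the other 8 genes.

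Within litters the myelin genes still varied together, with r = 0.906 for Mbp and Mag, 0.942 for Mbp and Mog and 0.901 for Mbp and Cnp. Part of this rested on litter C, where WT 4 and KO 4 differed widely. Without litter C the same values were 0.694, 0.851 and 0.845, and Mag and Mog fell from 0.769 to 0.338. These within-litter values are given as a description, with no p.

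The start regions of 3 myelin genes that moved together, and of Pdgfra for contrast, are shown because SOX10, itself among the 9 genes, is known to act on myelin genes through short SOX motifs. Windows were found in RefSeq (GRCm38.p6) for 6 of the 9 genes, Pdgfra, Cspg4, Olig2, Mag, Mog and Cnp. The letters searched were ACAAAG and ACAATG on both strands, in up to 250 bases before the start, and capitals mark each match. The stretches end before the first base of the gene in GENCODE or RefSeq, whichever comes first.
Mag, chr7:30914874-30915113, minus strand: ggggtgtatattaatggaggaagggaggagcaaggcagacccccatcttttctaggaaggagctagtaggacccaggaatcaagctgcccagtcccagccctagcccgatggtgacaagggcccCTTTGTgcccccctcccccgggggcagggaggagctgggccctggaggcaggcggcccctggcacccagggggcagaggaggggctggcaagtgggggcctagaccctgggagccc
Cnp, chr11:100574689-100574903, plus strand: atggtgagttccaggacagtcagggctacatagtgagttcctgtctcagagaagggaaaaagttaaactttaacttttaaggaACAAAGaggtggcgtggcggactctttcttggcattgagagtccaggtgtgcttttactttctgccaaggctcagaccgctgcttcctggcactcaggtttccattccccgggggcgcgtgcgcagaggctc
Mog, chr17:37023399-37023648, minus strand: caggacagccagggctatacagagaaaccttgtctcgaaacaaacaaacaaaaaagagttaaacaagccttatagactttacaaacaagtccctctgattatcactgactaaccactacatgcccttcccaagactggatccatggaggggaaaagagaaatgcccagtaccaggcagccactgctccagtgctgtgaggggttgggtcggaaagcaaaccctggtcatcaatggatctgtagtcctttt
Pdgfra, chr5:75152001-75152250, plus strand: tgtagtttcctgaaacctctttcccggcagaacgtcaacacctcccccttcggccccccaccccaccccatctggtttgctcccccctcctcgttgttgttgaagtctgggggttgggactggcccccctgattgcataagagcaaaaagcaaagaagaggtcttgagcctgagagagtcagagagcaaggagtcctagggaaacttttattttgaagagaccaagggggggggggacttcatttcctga
Mag and Cnp each held 1 match and Mog and Pdgfra held 0. Of the windows not printed, that of Cspg4 held 0. That of Olig2 held 1, but past the first base of the gene in GENCODE, where a printed stretch would have ended, so that such a stretch held 0. Of all 32536 distinct windows of 250 bases, 25% held at least 1 match, so 3 of these 6 whole windows is a description of the letters and not of binding.

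Markers of other cell types moved with the same litters. The mean log2 CPM of 8 astrocyte markers was 6.73 in litter B, 7.29 in litter A and 7.36 in litter F, and their summed level was 1233 to 1886 CPM in WT and 1387 to 1815 CPM in KO brains. The litter test called 7 of these 8 markers, among them Slc1a2, S100b, Aqp4, Gfap and Slc1a3. Over the 14 libraries the astrocyte mean had r = 0.972 and rho = 0.982 with Mbp, and r = 0.976 and rho = 0.952 with Cnp (adjusted permutation p = 6.55e-05 for each r, over 72 pairs of a gene with a list, with libraries of 1 litter not independent). Without WT 2 and WT 3 these values of r were 0.975 and 0.964, and with litter means subtracted they were 0.741 and 0.824.

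The 8 neuron markers, of which Snap25, Syt1, Nefl, Rbfox3 and Stmn2 were called for litter, spanned less, with a median ratio of highest to lowest litter mean of 1.17 against 1.49 for astrocyte markers. Their mean was nevertheless related to Mbp (r = 0.948) and Mog (r = 0.971), at the same adjusted permutation p of 6.55e-05. In this family the astrocyte and neuron means were each related to 9 of 9 genes at an adjusted permutation p under 0.05, and the microglia mean to 1 of 9, Pdgfra (r = 0.639, adjusted permutation p = 0.0481, and rho = 0.604, adjusted permutation p = 0.0985). Within litters this did not hold for every gene. With litter means subtracted, Olig2 had r = -0.19 with the astrocyte mean and 0.21 with the neuron mean. The astrocyte value of Cspg4 was 0.23 and the neuron value of Pdgfra 0.28, against a neuron value of 0.766 for Mbp, all given with no p. The microglia and Hox results depended on KO 4. Without it the microglia mean was related to 8 of 9 genes by r, which lay between 0.539 and 0.786 over the 9. By rho, Olig1, Olig2, Sox10, Mag and Mog did not pass (adjusted permutation p from 0.0507 for Mag to 0.128 for Olig1). Without WT 2 and WT 7 as well, the microglia r lay between 0.343 for Sox10 and 0.659 for Pdgfra. The Hox mean, related to 0 of 9 with KO 4, was related to 8 of 9 without it, with r between -0.88 and -0.53. With litter means subtracted over all 14 libraries, the Hox r was 0.812 for Mbp, 0.868 for Mag and 0.775 for Mog, so that the sign turned. For Pdgfra it was -0.15 and for Cspg4 -0.02. Without litter C the values were 0.195 for Mbp, 0.363 for Mag, 0.217 for Mog and -0.81 for Olig2. These litter-centred values are given with no p. Within genotypes the microglia values of r lay between 0.723 and 0.905 in WT and between -0.27 and 0.0753 in KO brains. The part of these cells in the litter differences was not tested.

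Some of the 9 genes are also made by cells outside the lineage, whose marker means passed the adjusted threshold with 0 of the 9 genes, with or without KO 4. Schwann cells, which make Mbp, Mag, Cnp and Sox10 in peripheral nerve, are marked by 9 listed genes that summed to 45.3 to 52.4 CPM in WT and 40.9 to 52.8 CPM in KO brains, and their mean had r = 0.0101 with Mbp (adjusted permutation p = 0.974). Pericytes also express Cspg4 and meningeal fibroblasts Pdgfra. The mean of 8 pericyte markers had r = 0.201 with Cspg4 (adjusted permutation p = 0.607), and the mean of 10 fibroblast markers r = -0.347 with Pdgfra (adjusted permutation p = 0.337). With litter means subtracted these values were 0.525 and 0.426, given with no p, so that the sign for the fibroblast markers turned. Within genotypes, also with no p, the pericyte value was 0.701 in WT and -0.397 in KO brains. The fibroblast value was -0.151 in WT and -0.794 in KO brains. Litter was called for Pdgfrb, Rgs5 and Abcc9 of the pericyte markers and for Slc6a13, Col1a1, Foxc1 and Aldh1a2 of the fibroblast markers.

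The genes most alike to the mean of Mbp, Mag, Mog and Cnp over 14 libraries, among 15219 others of at least 1 CPM, were Lynx1 (r = 0.993) and Mobp (r = 0.993). Next came Mro, Ugt8a, which makes the galactolipids of myelin, Ckmt1, Slc14a1, Wsb2, Thy1, Cplx1 and Slc6a11, down to r = 0.98. Lynx1, Thy1 and Cplx1 are known from neurons and Slc6a11 and Slc14a1 from astrocytes. As many as 573 genes had r above 0.9, so that the pattern was shared widely. The genes most alike to the mean of Pdgfra and Cspg4 were Mki67 (r = 0.964), the proliferation marker, and Smc4, Tpx2, Ncapg2, Etv6, Kif15, Diaph3, Kif11, Hmmr and Plk1, down to r = 0.93. Except for Etv6 and Diaph3 these act in chromosome condensation or the mitotic spindle or, like Mki67, mark dividing cells. Here 51 genes had r above 0.9.

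The comparison of Capn15 KO with WT asks whether loss of the protease alters the lineage at P2, and no gene of the 9 passed an FDR of 0.05. The test called 1 of all 17927 genes (0.00558%), which was not Capn15 (edgeR FDR 0.0747). The study's own edgeR analysis, also with sex and litter, listed more genes at this threshold, Capn15 among them and none of the 9. At an unadjusted p under 0.05 the test used here called 1 of the 9 genes, Mag, beside 922 of all genes (5.14%). Of these 922, 406 were lower in KO brains (2.26% of all genes). The ranges of WT and KO brains overlapped for all 9 genes, and failed to overlap for 1 of all genes (0.00558%). The log2 fold change of KO over WT was below 0 for 8 of the 9 genes, beside 8713 of the 17927 genes (48.6%), with a median of -0.05 against 0.0015 over all genes. Without KO 4 it was below 0 for 4 of the 9 genes at a median of 0.0098, without WT 4 for 4 of the 9 at a median of 0.0099, and without KO 4 and litter F for 4 of the 9 at a median of 0.018. The 9 genes vary together, so that these directions are not 9 separate observations.

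**Figure D4:**
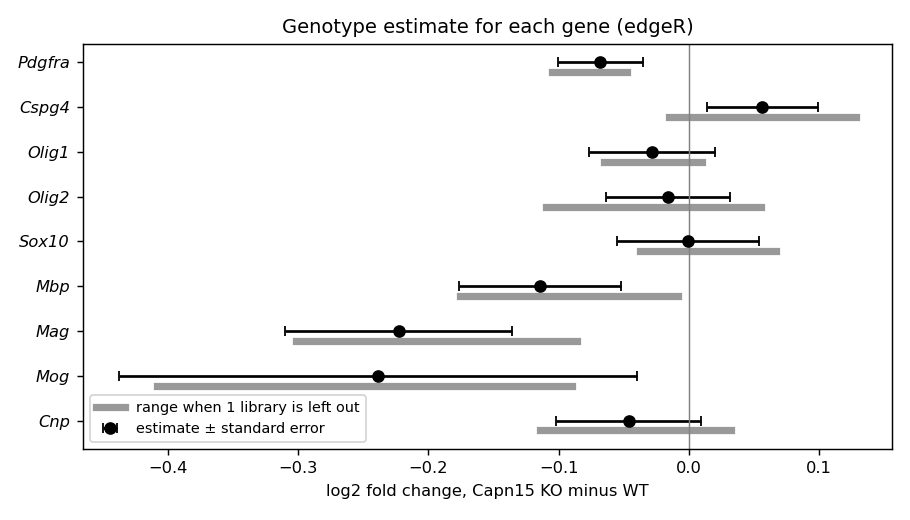
Log2 fold change of Capn15 KO over WT for each of the 9 genes from the edgeR fit, as points with standard errors, with the range of the estimate when 1 library is left out as grey bars. The estimates lie between -0.24 for Mog and 0.06 for Cspg4, and leaving out 1 library moves Mbp between -0.18 and -0.01.

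Pdgfra had a lowest value of 149.5, a median of 172.7 and a highest value of 196.4 CPM in WT brains, and 150.8, 161.6 and 180.3 CPM in KO brains. The KO brains lay inside the WT range, and 4 of 7 pairs were lower in the KO. The log2 fold change was -0.07 ± 0.03 (SE, edgeR FDR 0.972). For Cspg4 the values were 30.2, 33.7 and 40.2 CPM in WT and 31.9, 34.2 and 38.6 CPM in KO brains. The KO brains were again inside the WT range, with a log2 fold change of 0.06 ± 0.04 (SE).

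Of the transcription factors, Olig1 ran from 44.2 through a median of 68.4 to 70.9 CPM in WT and from 49.1 through 60.7 to 73.4 CPM in KO brains. Olig2 ran from 18.6 through 23.2 to 28.3 CPM in WT and from 18.2 through 22.7 to 27.9 CPM in KO brains. Sox10 ran from 11.0 through 16.4 to 18.8 CPM in WT and from 13.1 through 15.3 to 21.1 CPM in KO brains. In each of these genes the 2 groups covered nearly the same range, with the brains of litter B at the low end of both. The log2 fold changes were -0.03 ± 0.05, -0.02 ± 0.05 and -0.00063 ± 0.05 (SE), and the sign of the third depended on the fit.

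Mbp had a lowest value of 56.8, a median of 105.3 and a highest value of 143.9 CPM in WT brains, and 66.0, 87.2 and 156.8 CPM in KO brains. The lowest Mbp brains of each group came from litter B, the highest from litter F, and the groups overlapped over nearly their whole range. The log2 fold change was -0.11 ± 0.06 (SE, edgeR unadjusted p = 0.0858). Cnp ran from 41.8 through 64.2 to 80.4 CPM in WT and from 48.2 through 57.8 to 79.3 CPM in KO brains, with a log2 fold change of -0.05 ± 0.06 (SE).

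Mag ran from 5.36 through a median of 11.4 to 16.8 CPM in WT and from 6.32 through 8.85 to 17.7 CPM in KO brains. Its highest library of all was KO 7 and its lowest was WT 3, so that the raw ranges overlapped, and 4 of 7 pairs were lower in the KO. The log2 fold change was -0.22 ± 0.09 (SE, edgeR p = 0.0227, FDR 0.879), and an exact permutation test of the log2 CPM without litter and sex gave p = 0.633. At an unadjusted p under 0.05 the exact permutation test called 0 of the 9 genes, beside 311 of all genes (1.73%). Mog, on chromosome 17 like Capn15 and 11 Mb from it, ran from 0.0998 through 0.571 to 1.52 CPM in WT and from 0.16 through 0.437 to 1.86 CPM in KO brains. Its estimate was the least precise of the 9, with a log2 fold change of -0.24 ± 0.20 (SE).

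The direction differed between litters. Except in litter F, the WT and KO brains of a litter were of opposite sex, so that differences within these litters cannot be told apart from those of sex. In litter C, KO 4 was lower than WT 4 by a log2 difference of -0.54 for Mbp, -0.85 for Mag and -1.26 for Mog. In litters A, D and E the KO brain was lower by less, with log2 differences of -0.15, -0.10 and -0.14 for Mbp, -0.27, -0.24 and -0.21 for Mag, and -0.045, -0.39 and -0.36 for Mog. In litters B and F the KO mean was above the WT mean for the same 3 genes, by 0.15 and 0.12 for Mbp, 0.19 and 0.10 for Mag, and 0.24 and 0.28 for Mog. Without KO 4 the fitted log2 fold changes were -0.01 for Mbp, -0.09 for Mag and -0.09 for Mog. Without KO 4 and litter F together they were at -0.05, -0.15 and -0.25, and without litter F alone at -0.16, -0.29 and -0.41. KO 4 is also the brain with the low Hox genes, and the part of that in the result was not tested.

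The wider myelin list showed the same picture, with 0 of 30 genes past the FDR and 24 of 30 below 0, at a median log2 fold change of -0.09. At an unadjusted p under 0.05 by edgeR, 5 of the 30 were lower in KO brains, beside 2.26% of all genes, and the 24 below 0 stand beside 48.6% of all genes. By size of p the first was Mal, a proteolipid of myelin membranes, at -0.24 ± 0.07 (SE, FDR 0.567), and Mobp, at -0.38 ± 0.16 (SE, FDR 0.944), and Ugt8a, at -0.18 ± 0.07 (SE, FDR 0.874), were also among them. Mal was chosen for naming after its values were seen. Without KO 4 the list had 20 of 30 genes below 0, a median of -0.03 and 2 genes at p under 0.05. The OPC list had 8 of 20 genes below 0 and a median of 0.02, and the committed list 13 of 18 and a median of -0.02, with no gene past the FDR in either.

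Beside these, 12 of 12 Hox genes were below 0 in KO brains, at a median of -0.32 that became -0.05 with 7 of 12 below 0 without KO 4. All 8 choroid plexus markers were below 0, at a median of -0.19, which was -0.20 without KO 4, and their summed level was 50.7 to 62.9 CPM in WT and 43.8 to 58.2 CPM in KO brains. No Hox gene and no choroid plexus marker passed an FDR of 0.05 for genotype, and the litter test called Slc4a5, Kl, Folr1 and Clic6 of the choroid plexus list and Hoxb3, Hoxa2, Hoxd3 and Hoxc4 of the Hox list. The part of these cells and regions in the myelin values was not tested.

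Sex made no difference past the threshold either. The sex term of the same edgeR fit called 0 of the 9 genes, beside 12 of all 17927 (0.0669%). At an unadjusted p under 0.05 it called Mag alone, with a log2 difference of females over males of 0.21 ± 0.10 (SE, edgeR FDR 0.927), beside 904 of all genes (5.04%). Without KO 4 and litter F it was 0.09. The other estimates lay between -0.07 for Cspg4 and 0.28 for Mog. In the same fit 12 of 12 Hox genes were higher in females, at a median log2 difference of 0.64 with 12 of 12 at an unadjusted p under 0.05 and 0 past the FDR. KO 4 was male, and without it or without WT 4 the median was 0.29 with 5 of 12 at that p, while without KO 5 or WT 5 it was 1.05. The part of this in the Mag value was not tested.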

How the data were processed

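The authors depleted ribosomal RNA, trimmed reads with Trimmomatic, aligned them to GRCm38 with STAR and assigned them to genes. What they deposited are raw counts of 17927 genes of 14 brains after a filter whose rule is not given in the sources used here. For the counting the methods name HTSeq-count and the submitters' processing notes name featureCounts and Subread. The methods name a ScriptSeq kit and a HiSeq instrument, whereas the labels name a stranded TruSeq kit. The strand setting and annotation are not given in the sources used here.

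The labels gave the genotype. The names of the count columns gave sex and the letter taken here as the litter. Same-numbered brains share a litter letter and were taken as pairs. In litter B the letter does not say which WT brain goes with which KO brain, so that pairing there rests on the replicate number alone. Over 15227 genes the deviations of same-numbered brains correlated between -0.467 and 0.443 (mean 0.123). No pair was a copy, since the closest, WT 1 and KO 1, were a chi-square of 4.66 per gene apart.

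Counts of all genes were fitted with edgeR 4.0.16 in R 4.3.3 (TMM, quasi-likelihood, genotype with litter and sex, two-sided, Benjamini-Hochberg FDR under 0.05). The SE of each edgeR estimate is its absolute log2 fold change divided by the square root of its F statistic. log2 CPM used a prior count of 2. GENCODE M21, in which 17915 genes were found, gave lengths. Exact tests enumerated 3432 regroupings (smallest p 0.000583) or sign flips of 7 values (smallest p 0.0156). Alternatives used DESeq2 1.42.0, limma 3.58.1, other scalings, other filters, fewer covariates, a replicate block, and fits with 1 library left out. Each library is 1 brain. The floor of 3 counts covers counting error only.

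The 9 genes and all lists were chosen with earlier results of these data known. Named genes are the 9, up to 5 genes of each list past the FDR in a test, the 3 most abundant of each lineage list, and the 10 most alike in pattern to each group, and others are said to be chosen after their values were seen. The values of some genes that the rule names are not reported here.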

Additional observations from a re-analysis of the deposited data

Results flagged for a closer look

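A pair of values of KO 4 lay far from those of the other 6 Capn15 KO brains for their group size. Its mean log2 CPM over 12 caudal Hox genes was the lowest, with a gap to the next brain of 0.593 of the whole KO range, and its mean over 8 microglia markers was the highest, with a gap of 0.701. Values of the 9 genes and of the 8 marker means were examined in 34 groups, of which chance would mark about 1.7. None of the 9 lineage genes was marked in either genotype.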

How the results depend on the processing

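No setting called any of the 9 genes for genotype (24 alternatives) or for sex (23), and the litter test called 8 or 9 of them in all 23 of its alternatives, with Cspg4 the gene that was lost (FDR 0.0523 with library totals, 0.0061 to 0.268 with 1 library left out) and Mog without an adjusted p from DESeq2. The count over all genes for genotype moved from 1 to 34 with the likelihood ratio test, 17 with DESeq2, 0 with library totals, 0 with the replicate block in place of litter, 7 without litter F, 2 without KO replicate 4 and litter F (chosen after seeing the data), and 0 to 7 with 1 library left out. For sex it moved from 12 to 36 with the likelihood ratio test and 19 with DESeq2. Small genotype estimates changed sign. Sox10 was at 0.0049 with limma-voom, 0.032 with genotype alone and 0.00046 with the replicate block. Pairing the brains this way lost the only gene called for genotype and changed no call of the 9 genes. Olig2 was at 0.0026 without litter F. Without KO replicate 4 and litter F, Sox10 was at 0.033, Olig2 at 0.11, Olig1 at 0.018 and Cnp at 0.037 for genotype, and Pdgfra was at 0.030, Olig1 at -0.044 and Cnp at -0.019 for sex. With 1 library left out, genotype estimates lay between -0.015 and 0.13 for Cspg4, -0.065 and 0.0099 for Olig1, -0.11 and 0.055 for Olig2, -0.037 and 0.066 for Sox10 and -0.11 and 0.032 for Cnp, and sex estimates between -0.025 and 0.040 for Pdgfra, -0.15 and 0.013 for Cspg4, -0.040 and 0.045 for Olig1, -0.14 and 0.044 for Olig2 and -0.015 and 0.15 for Cnp. Leaving out 1 WT library gave 0 to 6 ordered neighbour pairs in place of 5, 6 without WT replicate 2 and 0 without any other, where 6 brains allow no exact p below 0.03125. With litter means subtracted 12 of 36 pairs of genes passed, at p-values that are too small because the libraries of a litter then mirror each other, and gene and list pairs numbered 16 to 34 with 1 library left out, the highest without KO replicate 4. The causes of these changes were not tested. Depth limits Mog most, whose lowest library held 4 counts.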
